A study of Mus musculus with 6 samples.

Results

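The constant regions of the immunoglobulin chains and the J chain were followed across the lymphocytes that remained among resident peritoneal cells. The set held 9 genes of the 55538 features counted, namely the heavy-chain genes Ighm, Ighd, Igha and Ighg3, the kappa gene Igkc, the lambda genes Iglc1, Iglc2 and Iglc3, and Jchain. They were taken by name, and all 9 were listed. Peritoneal cells of mice labelled C57BL/6 (C57BL/6J in the methods) were allowed to adhere for 1 hour, and they were then given a media change or apoptotic cells (ACs), which were UV-irradiated human Jurkat T cells. The genotypes were MerTK +/+ (WT) and MerTK -/- (MerKD, which carries no functional copy of the efferocytic receptor MerTK), each as control and after 2 h or 6 h with ACs. The mice were adult, those of a group were pooled, and each of the 6 groups gave 1 library, so no group had a biological replicate. Controls received fresh medium in place of ACs, on the schedule of the 6 h group.

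Each barcode carried a library number from 1 to 6, but nothing in the labels ties a number to a genotype or time point. Values were therefore given over the pool of 6 libraries and by library number, and no conditions were compared. The table held 7760 barcodes and 40172124 unique molecular identifiers (UMIs, each a counted mRNA molecule), with 4234786 to 10287079 UMIs per library. The filter on cells kept 7665 barcodes, and 28 barcode sequences occurred in more than 1 library. Mertk ranged from 16.3 to 33.2 CPM (UMIs of a gene per 1000000 UMIs of the class) in the macrophages of the 6 libraries, a range that checked no label because no number is tied to a genotype. The intervals below are 95% intervals for counting error alone, Poisson for CPM, conditional for ratios and exact binomial for shares. They do not cover differences between mice or between cells. Those on UMIs take each UMI as independent, although UMIs of a gene can lie together in 1 cell.

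A B cell receptor joins a heavy chain to a light chain, and each chain carries a constant region that defines its class. IgM and IgD are made by alternative splicing of a single heavy-chain transcript, whereas IgG and IgA need class switching of the DNA, and a B cell usually keeps either a kappa or a lambda light chain. The J chain links secreted IgM and IgA into polymers. B-1 cells, the prevalent B cells of the peritoneal cavity, are known as a source of natural IgM, and follicular B-2 cells carry more surface IgD.

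B cells were taken as cells with at least 4 UMIs of Cd79a and Cd79b, the signalling chains of the receptor, and with no UMI of the macrophage receptors Csf1r and Adgre1. The gate held 2979 cells, although the samples were labelled as peritoneal macrophages. All 7 B cell markers, such as Ms4a1 and Pax5, were detected in over 10% of them. The B-1 gate (at least 1 UMI of Bhlhe41, Zbtb32 or Cd5 and none of Fcer2a) held 1338 cells at a median of 7007 UMIs per cell. The B-2 gate (at least 1 UMI of Fcer2a, the low-affinity IgE receptor, and none of the other 3) held 88 cells at a median of 3044 UMIs. Libraries 1 to 6 gave 20, 18, 11, 21, 11 and 7 of these 88 cells, so values of the B-2 gate by library rest on few cells. Another 71 cells had genes of both gates and 1482 had neither. The Egr gate (at least 2 UMIs of the activation genes Egr3 and Egr4) held 302 cells, of which 171 were also in the B-1 gate and 10 in the B-2 gate. As cells that should lack immunoglobulin, 2820 macrophages and 472 T cells were used. Macrophages had at least 2 UMIs of Csf1r, Adgre1 and Fcer1g together and at most 2 of Cd79a and Cd79b. T cells had at least 2 UMIs of Cd3d, Cd3e and Cd3g together and none of Cd79a, Cd79b, Csf1r or Adgre1.

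The gates differed in depth and rested on few UMIs, since 678 cells of the B-1 gate and 68 of the B-2 gate entered on a single UMI. B cells with exactly 4 Cd79 UMIs (258 cells) had 1350 CPM of Ighm, and the 277 cells just outside at 3 had 1395 CPM. Markers that the gates did not use lay in part on the side of their names. Icosl, a ligand for T cell help, was at 2.65 CPM in the B-1 gate and 42.7 CPM in the B-2 gate. The B-1 markers Ahnak (92.2 and 24.0 CPM) and Anxa2 (37.4 and 10.7 CPM) were higher in the B-1 gate. Spn (46.1 and 50.7 CPM) and Ctla4 (38.3 and 48.0 CPM) were not, and Wnt10a was at 0 in both gates. Summed T cell markers were at 136 and 149 CPM in the B-1 and B-2 gates and summed macrophage markers at 56.8 and 42.7 CPM. Their part in the values below was not tested.

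The lambda genes lie close together and resemble each other, which bears on every count given to a single member. Iglc1, Iglc2 and Iglc3 are on the minus strand of chromosome 16 (GRCm38), each with its constant region in 1 exon. Shown are 90 bases from the start of each coding region, with the Iglc2 stretch starting 1 base further in so that positions line up. Differences between members, by which a read can be assigned, are seen here side by side (others lie further along). Iglc4 was added as the remaining member of the cluster. Capitals mark bases that differ from Iglc2 at the same position.
Iglc2 (chr16:19198763-19198852): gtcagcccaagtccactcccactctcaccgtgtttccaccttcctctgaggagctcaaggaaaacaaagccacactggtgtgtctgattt
Iglc3 (chr16:19065592-19065681): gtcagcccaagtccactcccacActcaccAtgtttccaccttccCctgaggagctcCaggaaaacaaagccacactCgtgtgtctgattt
Iglc1 (chr16:19061982-19062071): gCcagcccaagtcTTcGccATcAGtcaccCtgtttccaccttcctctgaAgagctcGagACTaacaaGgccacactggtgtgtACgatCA
Iglc4 (chr16:19195223-19195312): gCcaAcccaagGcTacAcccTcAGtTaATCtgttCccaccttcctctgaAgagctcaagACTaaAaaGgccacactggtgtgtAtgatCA
Iglc3 differed from Iglc2 at 5 of these 90 bases and Iglc1 at 19. Over the aligned coding region, Iglc2 and Iglc3 shared 96.5% of 314 bases, with 79 bases as the longest identical run, whereas Iglc1 and Iglc2 shared 73.2%. No stretch of 98 bases, the length given for the second read, was identical between a transcript of Ighm, Ighd, Igkc, Iglc1, Iglc2, Iglc3 or Iglc4 and one of another gene. Reads with a mismatch were not examined, so how UMIs were divided between Iglc2 and Iglc3 remained uncertain. The annotation also gives Iglc2 a transcript that starts in a 154-base noncoding exon (chr16:19200198-19200351), 1344 bases upstream of the constant exon.

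Heavy chains of the naive receptor came first. Ighm, on chromosome 12 (GRCm38, chr12:113418558-113422730, minus strand), encodes the constant region of IgM. A UMI of it was found in 98.1% of B cells (97.5% to 98.5%), with a median of 9 and up to 60 UMIs per cell. Its level was 1741 CPM (1716 to 1766) in the B-1 gate and 1593 CPM (1468 to 1726) in the B-2 gate. In the B-1 gate libraries 1 to 6 gave 1677.5, 1637, 1513, 2039, 1909.5 and 2125 CPM, and in the B-2 gate they gave 1547, 1643, 1212, 2181, 1362 and 1782 CPM. The ranges of the 2 gates overlapped, and libraries 4, 5 and 6 were higher than the other 3 in the B-1 gate. The pooled log2 ratio of B-1 over B-2 was 0.13 (0.0099 to 0.25), and it was above 0 in 4 of 6 libraries. Once every cell was thinned to 1500 UMIs, Ighm was found in 85.6% of cells of the B-1 gate (83.6% to 87.4%) and 88.4% of the B-2 gate (79.7% to 94.3%), intervals that overlapped.

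Ighd (chr12:113406604-113416324, minus strand), the constant region of IgD, lies just downstream of Ighm and gave the clearest difference of the set. It stood at 67.8 CPM (62.9 to 72.9) in the B-1 gate, 416 CPM (354 to 487) in the B-2 gate and 164 CPM (155 to 174) in cells with neither gate's genes. Libraries 1 to 6 gave 75.1, 84.5, 39.0, 74.5, 69.0 and 79.6 CPM in the B-1 gate. In the B-2 gate they gave 309, 561, 179, 787, 205 and 611 CPM. The libraries of the gates did not overlap, since the lowest library of the B-2 gate was above the highest of the B-1 gate. Pooled, Ighd was 6.14-fold lower in the B-1 gate (log2 ratio -2.62, -2.87 to -2.36), and it was lower in 6 of 6 libraries, by log2 ratios of -3.40 to -1.57. The share of cells with a UMI was 32.6% (30.1% to 35.2%) in the B-1 gate and 65.9% (55.0% to 75.7%) in the B-2 gate, and at 1500 UMIs per cell it was 11.0% and 41.9%.

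**Figure D1:**
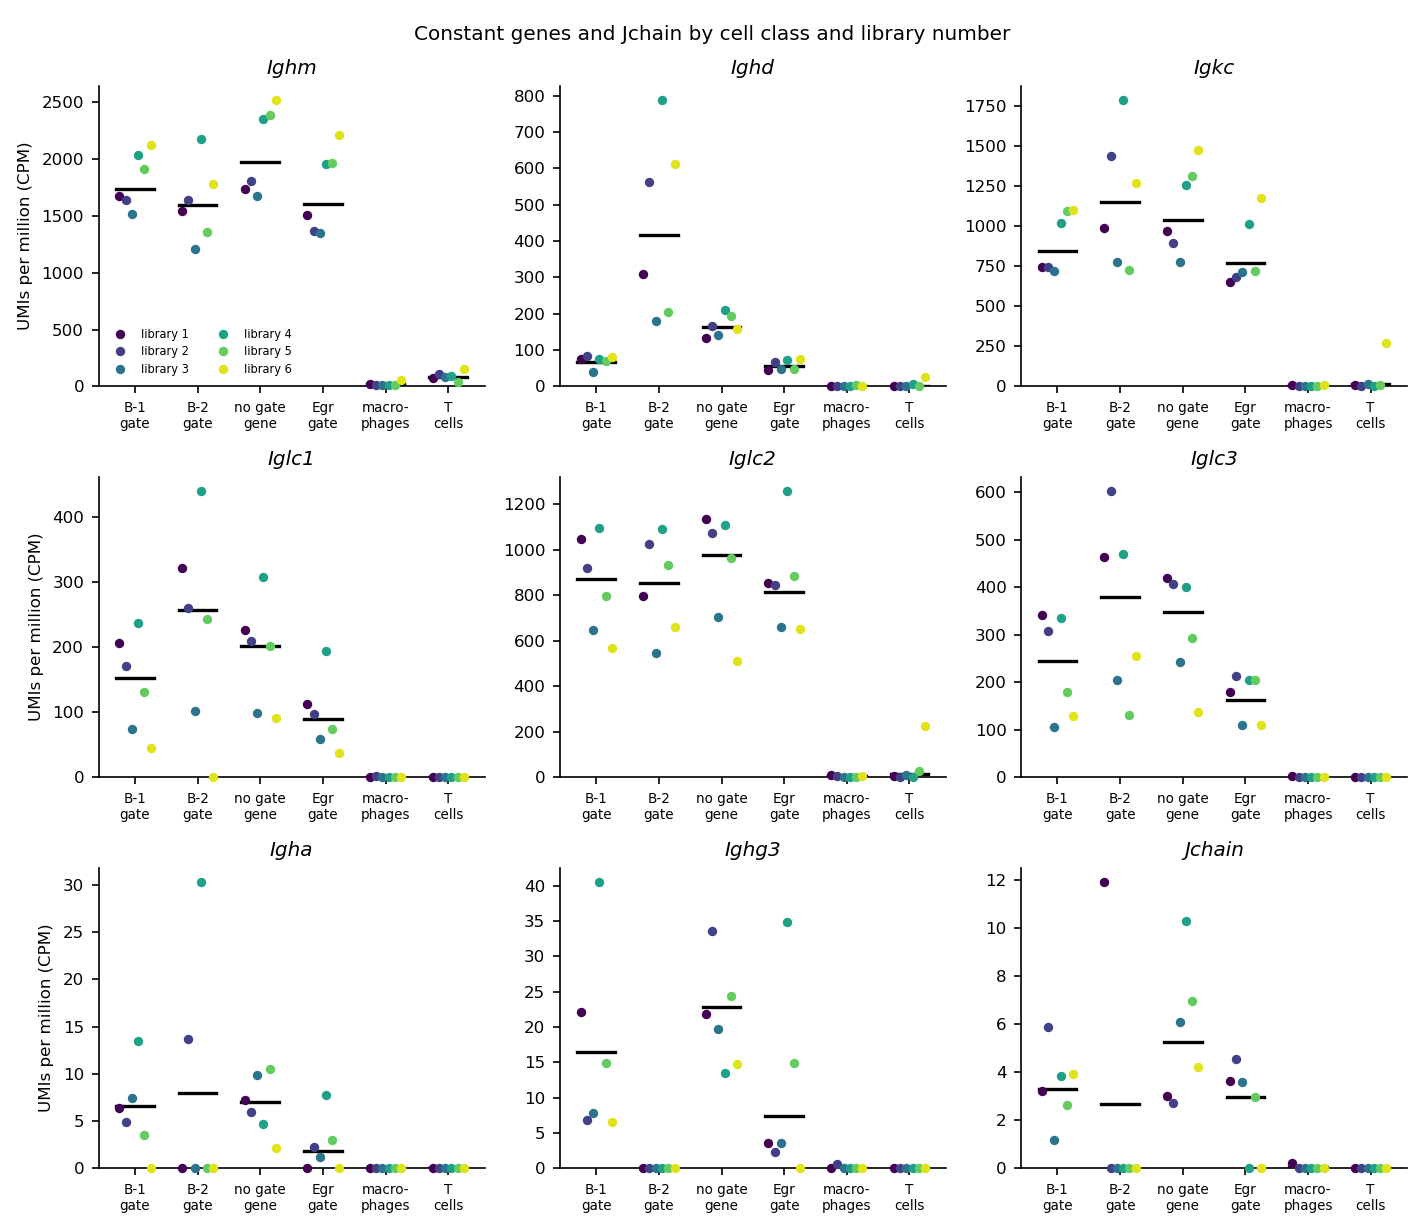
Level of each of the 9 genes in CPM (linear axes that start at 0) in 6 cell classes. Each point is a library number and the black line is the pool. The libraries of Ighd do not overlap between the B-1 gate (39.0 to 84.5 CPM) and the B-2 gate (179 to 787 CPM), and Ighg3 has no UMI in the B-2 gate. The axes of Igha, Ighg3 and Jchain reach far lower values than the others.

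Of the UMIs given to Ighd and Ighm together, Ighd made up 3.75% (3.48% to 4.03%) in the B-1 gate, 7.69% (7.28% to 8.12%) in cells with neither gate's genes and 20.7% (17.9% to 23.8%) in the B-2 gate. By library the share ran from 2.52% to 4.91% in the B-1 gate and from 12.8% to 26.5% in the B-2 gate, again without overlap. Zfp318, which is needed for the splicing that yields IgD, was at 14.0 CPM (11.8 to 16.5) in the B-1 gate and 37.4 CPM (20.4 to 62.7) in the B-2 gate. In the B-2 gate the surrogate light-chain relative Vpreb3 reached 115 CPM (83.1 to 155), against 4.35 CPM (3.19 to 5.81) in the B-1 gate. Among the genes whose levels followed those of Ighd most closely were Rasgrp3 and Mef2c, with Pearson correlations of 0.91 and 0.90 of log2(CPM + 1) over 24 points. The points were 4 B cell classes in 6 libraries and shared their library depth, and no p is given. The closest gene was Slc28a2 for Ighm (0.83), Foxo1 for Igkc (0.77), N4bp3 for Igha (0.82) and Ppa2 for Jchain (0.86), the latter pair resting on very few UMIs.

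Among the light chains, Igkc (chr6:70726435-70726966, plus strand), the kappa constant region, was lower in the B-1 gate at 844 CPM (827 to 862) than in the B-2 gate at 1150 CPM (1044 to 1264). Libraries 1 to 6 gave 744, 748, 722, 1021, 1094 and 1103 CPM in the B-1 gate and 988, 1438, 778, 1787, 728 and 1273 CPM in the B-2 gate. These ranges overlapped, and library 5 went the other way. The pooled log2 ratio of B-1 over B-2 was -0.45 (-0.59 to -0.30), below 0 in 5 of 6 libraries. Iglc2 did not differ beyond counting error between the gates, at 872 CPM (854 to 890) and 854 CPM (763 to 953), with a log2 ratio of 0.03 (-0.13 to 0.19) that was above 0 in 3 of 6 libraries.

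Iglc1 was at 152 CPM (145 to 160) in the B-1 gate and 256 CPM (208 to 313) in the B-2 gate. In the B-1 gate libraries 1 to 6 gave 206, 171, 74.6, 237, 131 and 44.4 CPM, and in the B-2 gate 321, 260, 102, 439, 243 and 0 CPM. Library 6 was thus the lowest in the B-1 gate. In the B-2 gate its 0 CPM came from 7 cells with an upper limit of 188 CPM, so its rank there was not settled. The ranges overlapped. The log2 ratio was -0.75 (-1.05 to -0.44) and lay below 0 in each of the 5 libraries with a UMI in both gates. Iglc3 was at 244 CPM (235 to 254) and 379 CPM (319 to 447), a log2 ratio of -0.63 (-0.88 to -0.38), below 0 in 5 of 6 libraries. In the B-1 gate Iglc3 ran from 105 CPM in library 3 to 343 CPM in library 1, and in the B-2 gate from 131 to 602 CPM. The lambda genes thus varied more between libraries than Ighm did, with a highest library 5.34 times the lowest for Iglc1, 3.26 for Iglc3, 1.92 for Iglc2 and 1.40 for Ighm in the B-1 gate.

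Igha (chr12:113254830-113260236) and Ighg3 (chr12:113356224-113361232), the constant regions of IgA and IgG3 on the minus strand, were scarce. Igha had 129 UMIs in 80 of 2979 B cells, 68 of which had a single UMI. It was at 6.63 CPM (5.16 to 8.37) in the B-1 gate and 8.01 CPM (1.65 to 23.4) in the B-2 gate, where the value rested on 3 UMIs. Ighg3 had 355 UMIs in 160 B cells and was at 16.5 CPM (14.1 to 19.1) in the B-1 gate, from 6.53 CPM in library 6 to 40.5 CPM in library 4. It had no UMI in the 88 cells of the B-2 gate, with upper limits of 4.11% of cells with a UMI and 9.84 CPM. This sets no limit on cells that express the gene at this depth. Set against a floor of 3 counts in the B-2 gate (8.01 CPM), Ighg3 was 2.06-fold higher in the B-1 gate. This floor lay below the upper limit of 9.84 CPM, so the value is not a minimum fold. The value at the floor, a log2 ratio of 1.04, was at 0.34 without library 4 and at -0.15 with cells thinned to 1500 UMIs.

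Of the 8 members at 5 CPM or more on average over the gates, 1 was past 2-fold higher in the B-1 gate (Ighg3) and 1 past 2-fold lower (Ighd), each ratio being taken after adding 1 CPM. Ighg3 reached 5 CPM through the B-1 gate alone and stood against 0 UMIs, so its place in this count supports nothing beyond the values given above. Over all 9231 features at that level, 6.61% were past 2-fold higher and 6.76% past 2-fold lower. The median log2 ratio of the 8 members was -0.34, against -0.03 for all features. The intervals of Ighd, Igkc, Iglc1 and Iglc3 lay below 0 and that of Ighm lay above it.

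**Figure D2:**
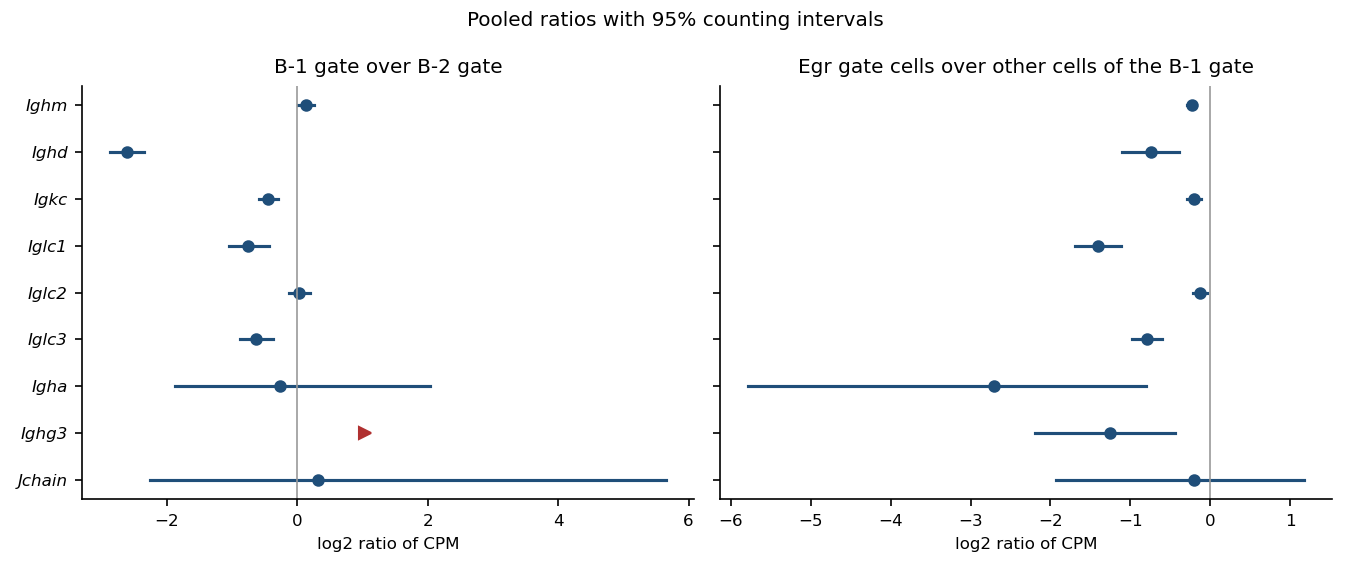
Pooled log2 ratios of CPM for the 9 genes, B-1 gate over B-2 gate on the left and Egr gate cells over the other cells of the B-1 gate on the right. Bars are 95% counting intervals, and the red arrow for Ighg3 marks its ratio to a floor of 3 counts in the B-2 gate. Ighd stands at -2.62 on the left and Iglc1 at -1.40 on the right.

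Cells of the Egr gate were compared with the rest of the B-1 gate (171 and 1167 cells, with medians of 9298 and 6724 UMIs). Pooled ratios of the constant genes differed widely in size, and that of Igha rested on 2 UMIs in the Egr cells. Ighm was at 1516 CPM (1458 to 1576) in Egr cells and 1784 CPM (1756 to 1812) in the rest, a log2 ratio of -0.23 (-0.29 to -0.17) that was below 0 in 6 of 6 libraries. Iglc1 was at 64.0 CPM (52.6 to 77.2) and 169 CPM (161 to 178), a log2 ratio of -1.40 (-1.70 to -1.12), lower in 6 of 6 libraries. By library Iglc1 gave 89.6, 107, 43.9, 63.7, 49.0 and 18.6 CPM in Egr cells and 225, 183, 82.5, 252, 153 and 51.2 CPM in the rest. The ranges overlapped, although within each library the Egr cells were the lower. Iglc3 (log2 ratio -0.79, -0.98 to -0.60) and Ighd (-0.74, -1.10 to -0.39) were also lower in 6 of 6 libraries. Igkc (-0.20, -0.29 to -0.12) was lower in 5 of 6 and Iglc2 (-0.13, -0.21 to -0.04) in 3 of 6. Of 7 members at 5 CPM or more, 2 were past 2-fold lower (Iglc1 and Ighg3) and 0 past 2-fold higher, against 3.05% and 1.77% of 9046 features. Ighg3 was at 7.64 CPM (4.07 to 13.1) in Egr cells and 18.2 CPM (15.5 to 21.2) in the rest, but library 4 went the other way with 71.7 CPM in its 13 Egr cells. Summed macrophage markers were at 126 CPM in the Egr gate, against 56.8 CPM in the whole B-1 gate, and their part in these ratios was not tested.

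Most B cells with enough light-chain UMIs to judge carried both classes. Of the 1823 B cells with at least 10 light-chain constant UMIs, 1361 (74.7%, 72.6% to 76.6%) had a lambda share between 20% and 80%. The lambda share exceeded 50% in 64.9% (61.7% to 68.0%) of such cells in the B-1 gate and in 55.0% (38.5% to 70.7%) in the B-2 gate. How the UMIs of a light chain were divided between its constant gene and the rest of the transcript was not examined. The share is therefore compared between cells and is not a ratio of transcripts. Across these cells Igkc and Iglc2 UMIs had a Spearman correlation of 0.01. Which part of Iglc2 its UMIs came from was not examined, and a constant UMI alone does not show a rearranged lambda chain.

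To see which light chain a cell used, B cells were split by their V segments, the variable parts that recombination joins to a constant region. This split was made after the values above were seen. Kappa V cells had at least 3 UMIs of Igkv segments and none of Iglv1, Iglv2 or Iglv3 (1465 cells). Lambda V cells had at least 3 UMIs of the Iglv segments and none of Igkv (318 cells), and 273 cells had at least 3 of each. Igkc was at 1249 CPM (1226 to 1273) in kappa V cells and 149 CPM (134 to 166) in lambda V cells, a log2 ratio of 3.06 (2.91 to 3.22) that was above 0 in 6 of 6 libraries. Igkv segments lie on the same transcripts as Igkc, so the split itself favoured this gap, which is a description. Iglc2 was at 972 CPM (951 to 993) and 851 CPM (813 to 890), so it was at least as high in kappa V cells, with a log2 ratio of 0.19 (0.12 to 0.26) above 0 in 4 of 6 libraries, and it was 0.024 without library 1. An Iglc2 UMI was found in 91.5% (89.99% to 92.9%) of kappa V cells and in 90.9% (87.2% to 93.8%) of lambda V cells. In kappa V cells libraries 1 to 6 gave 1150, 1041, 691, 1107, 791 and 537 CPM of Iglc2, and in lambda V cells 676, 989, 643, 1281, 1133 and 479 CPM, so the ranges overlapped. Since pooled Iglc2 was not higher in lambda V cells, the lambda share above is not a count of lambda cells.

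**Figure D3:**
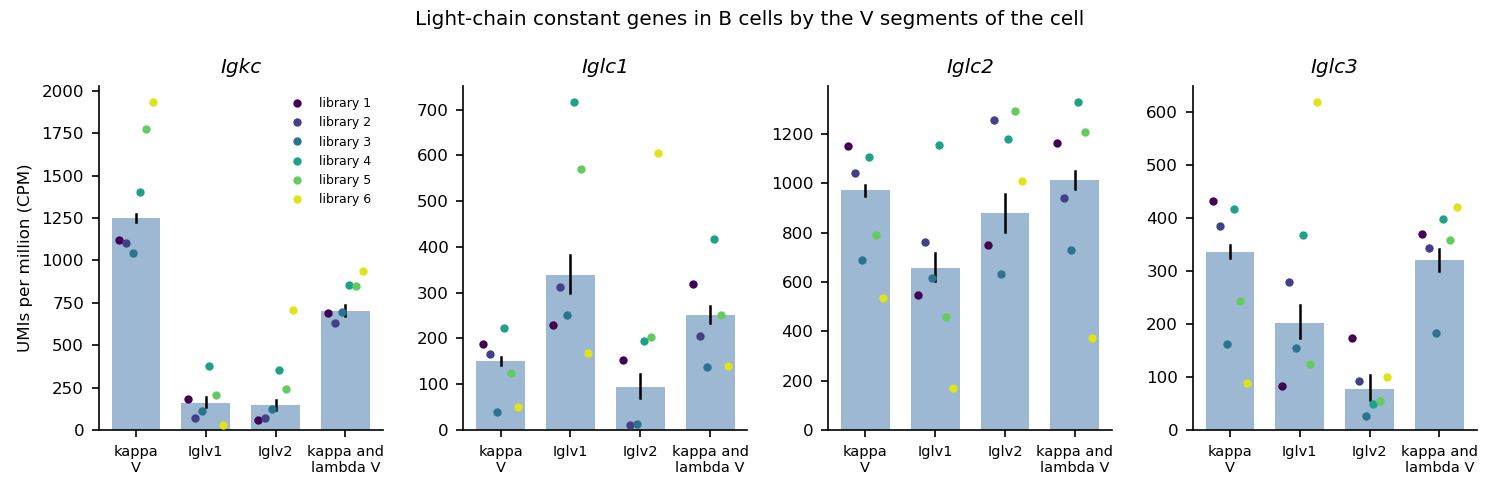
Light-chain constant genes in B cells by the V segments of the cell (CPM, linear axes that start at 0). Bars are the pool with 95% counting intervals and points are library numbers. Igkc is at 1249 CPM in kappa V cells and at 162 and 145 CPM in Iglv1 and Iglv2 cells, whereas Iglc2 is at 972, 658 and 878 CPM. The last class on each axis holds the 273 cells with V segments of both kinds.

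The other lambda genes split by V segment as well. Here too the classes were set by segments that share transcripts with the constant genes, so the levels are a description. Iglc1 was lower in kappa V cells than in lambda V cells (266 CPM, 245 to 288) in 6 of 6 libraries, with a log2 ratio of -0.82 (-0.97 to -0.68). In cells with Iglv1 alone (110 cells), Iglc1 was at 339 CPM (300 to 382), against 93.0 CPM (69.9 to 121) in cells with Iglv2 alone (81 cells) and 150 CPM (142 to 158) in kappa V cells. The log2 ratio of Iglv1 over Iglv2 cells was 1.87 (1.44 to 2.31) for Iglc1, higher in 5 of 6 libraries, and -0.42 (-0.60 to -0.24) for Iglc2, higher in 0 of 6. The exception for Iglc1 was library 6, with 5 Iglv1 cells and 3 Iglv2 cells. Iglv1 lies in the cluster that holds Iglc1 and Iglc3, and Iglv2 in that of Iglc2. Iglc3 was at 203 CPM (173 to 237) in Iglv1 cells, 77.5 CPM (56.5 to 104) in Iglv2 cells and 337 CPM (325 to 349) in kappa V cells, where it was thus highest.

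**Figure D4:**
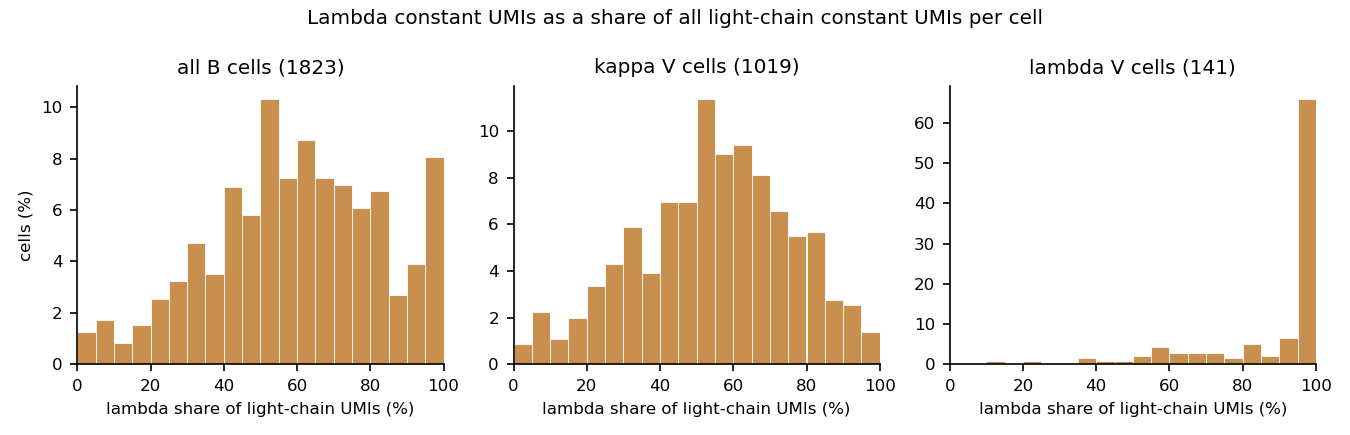
Lambda share of the light-chain constant UMIs per cell (x axis, percent) for cells with at least 10 such UMIs, as percent of cells in bins of 5 points. Kappa V cells form a broad peak with a median of 55.2%, and lambda V cells pile up at the right edge with a median of 100%.

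Lambda V cells with at least 10 light-chain UMIs had more lambda than kappa UMIs in 94.3% (89.1% to 97.5%) of 141 cells. Kappa V cells did so in 57.6% (54.5% to 60.7%) of 1019 cells, and their median lambda share was 55.2%. In lambda V cells Ighm was at 1503 CPM (1453 to 1555) and Ighd at 62.2 CPM (52.3 to 73.3), against 1923 CPM (1894 to 1952) and 139 CPM (131 to 147) in kappa V cells. Both were lower in lambda V cells in 6 of 6 libraries. Because the classes were set by immunoglobulin UMIs, these shares and levels are a description. Of kappa V and lambda V cells together, lambda V cells made up 21.1% (18.3% to 24.2%) in the B-1 gate. In the B-2 gate they made up 12.7% (5.65% to 23.5%), and these intervals overlapped. Cells with at least 3 V UMIs of each kind were left out, 168 in the B-1 gate and 5 in the B-2 gate.

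Macrophages and T cells set the level that cells without immunoglobulin show. Macrophages had 17.9 CPM of Ighm (15.8 to 20.3), 5.65 CPM of Igkc (4.48 to 7.03) and 5.58 CPM of Iglc2 (4.42 to 6.96). These were 101-fold, 164-fold and 163-fold below all B cells (log2 ratios of -6.65, -7.35 and -7.35). For macrophages with no Cd79 UMI the ratios were -7.94, -8.68 and -9.22, and for Iglc2 the ratio was -8.11 without library 1. All 7 members at 5 CPM or more were past 2-fold lower in macrophages than in B cells, against 21.9% of 9448 features. Of these, Ighd, Iglc1, Iglc3 and Ighg3 reached 5 CPM through B cells alone, so their place in this count supports nothing further. An Ighm UMI was found in 2.94% (2.35% to 3.64%) of macrophages at a median of 4458 UMIs per cell, and in 2.03% (1.54% to 2.63%) of the 2757 macrophages with no Cd79 UMI. Of the 254 Ighm UMIs of macrophages, 157 lay in 19 cells with at least 5 each. Library 6 was the highest at 55.2 CPM, and the other 5 ran from 10.3 to 16.8 CPM. Igha had no UMI in 2820 macrophages, Ighg3 had 1 and Jchain had 1.

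T cells departed from macrophages in Ighm. They had 84.3 CPM (69.5 to 101) of it, 4.70-fold above macrophages (log2 ratio 2.23, 1.90 to 2.56), and they were higher in 6 of 6 libraries. The T cell gate allowed no Cd79 UMI, and macrophages held to the same limit had 7.34 CPM (5.98 to 8.92) of Ighm. The share of T cells with an Ighm UMI was 19.1% (15.6% to 22.9%) at a median of 2654 UMIs per cell, and by library it ran from 10.0% to 23.8%, above every library of the macrophages (1.3% to 4.13%). At 1500 UMIs per cell the shares were 10.8% (8.07% to 14.0%) and 1.31% (0.923% to 1.82%). Of the 90 T cells with Ighm, 72 had a single UMI, the highest count was 4, and 85 had no light-chain constant UMI. Igkc was found in 1.27% (0.468% to 2.75%) of T cells, at 16.3 CPM, and 11 of its 22 UMIs were in 1 cell. Ighm stood to Igkc as 5.18 to 1 in T cells, 3.17 to 1 in macrophages and 1.96 to 1 in B cells. T cells with a UMI of Cd4, of Cd8a or of Nkg7 had Ighm in 26.4% (18.3% to 35.9%), 21.5% (13.1% to 32.2%) and 17.9% (10.2% to 28.3%) of cells, and these intervals overlapped. B cell markers summed to 18.5 CPM in T cells and 11.2 CPM in macrophages, with 3 of 7 at 0 in T cells, and T cells had no UMI of Iglc1, Iglc3, Igha, Ighg3 or Jchain.

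**Figure D5:**
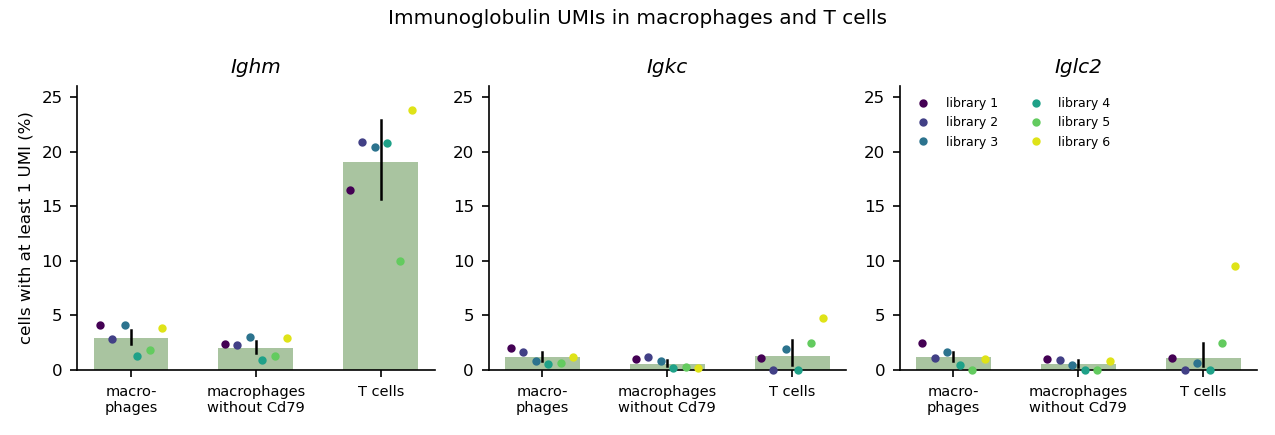
Percent of cells with at least 1 UMI of Ighm, Igkc or Iglc2 in macrophages, in macrophages without a Cd79 UMI and in T cells. Bars are the pool with 95% exact binomial intervals and points are library numbers. Ighm stands at 19.1% of T cells and 2.94% of macrophages, whereas Igkc is at 1.27% and 1.21%.

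Switched cells were called where the UMIs of Igha, the Ighg genes and Ighe reached 5 and exceeded those of Ighm and Ighd. There were 30 such cells among 2979 B cells (1.01%, 0.680% to 1.43%), of which 12 were led by Ighg3, 10 by Ighg2b, 5 by Igha and 3 by Ighg2c. By library they numbered 3, 11, 6, 6, 3 and 1. The B-1 gate held 12 (0.897%, 0.464% to 1.56%) and the B-2 gate 1 (1.14%, 0.0288% to 6.17%). The rule sets heavy-chain counts, so only other genes are given for these cells and the 2949 remaining. It also favours cells rich in immunoglobulin RNA, so these levels are a description. Igkc was at 1455 CPM (1253 to 1679) in switched cells and 921 CPM (907 to 935) in the others, and Iglc1 at 477 CPM (365 to 613) and 171 CPM (165 to 177). Mzb1, a chaperone of IgM assembly, was at 579 CPM (454 to 727) and 404 CPM (395 to 413). The plasma cell gene Xbp1 went the other way, at 54.7 CPM (22.0 to 113, from 7 UMIs) and 107 CPM (102 to 111), intervals that overlapped. The other constant genes were rarer, with 227 UMIs of Ighg2b, 25 of Ighg2c, 15 of Iglc4, 8 of Ighg1 and 6 of Ighe in all B cells.

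Jchain (chr5:88519809-88527891, minus strand) was found in 65 kept cells, 54 of them B cells and 38 of these with a single UMI. Its level was 4.15 CPM (3.28 to 5.17) in B cells, 3.31 CPM (2.31 to 4.61) in the B-1 gate and 2.67 CPM (0.0676 to 14.9, from 1 UMI) in the B-2 gate. The highest cell had 7 Jchain UMIs with 10 of Ighg2b, 18 of Igkc and 5 of Mzb1 among 5457 UMIs, and among the plasma cell genes it had 1 UMI of Prdm1 and none of Xbp1 or Sdc1. Cells with a Jchain UMI (54) had 2425 CPM of Ighm (2275 to 2582), against 1794 CPM (1775 to 1813) in B cells without it, and Mzb1 was at 572 CPM (501 to 651) and 402 CPM (392 to 411). Their levels of Xbp1 were 109 CPM (79.5 to 147) and 106 CPM (102 to 111). The plasma cell surface gene Sdc1 was lower in cells with Jchain, at 12.4 CPM (4.04 to 29.0) and 36.5 CPM (33.8 to 39.4), as was Creld2 at 67.2 CPM (44.3 to 97.7) and 118 CPM (113 to 123). The Sdc1 value rested on 7.41% of the 54 cells. Prdm1 went the other way, at 32.3 CPM (17.2 to 55.3) and 20.9 CPM (18.9 to 23.1), intervals that overlapped. It was found in 20.4% of cells with Jchain and 9.06% of those without. Tnfrsf17, a receptor of plasma cells, had no UMI in any B cell.

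Other genes of the pathway were compared between the B-1 and B-2 gates, where 6.61% of all features were past 2-fold higher in the B-1 gate and 6.76% lower. Of 17 genes of immunoglobulin secretion at 5 CPM or more, 3 were past 2-fold higher in the B-1 gate and 0 lower, with a median log2 ratio of 0.44 against -0.03 for all features. The largest were Fkbp11 (log2 ratio 2.40, -0.10 to 7.71), Prdm1, the repressor that drives plasma cell formation (1.31, -0.26 to 3.60), Ell2, which favours the secreted heavy-chain form (1.04, 0.22 to 2.00), and Pdia4 (0.67, 0.15 to 1.25). Of these 4, Ell2 and Pdia4 had intervals above 0, and Fkbp11 rested on 1 UMI in the B-2 gate. Of 15 receptor signalling genes, 0 were past 2-fold higher and 2 lower, the complement receptor Cr2 (-2.92, -4.17 to -1.48) and the kinase Btk (-1.12, -1.62 to -0.57). Siglecg, an inhibitory receptor of B-1 cells, was higher in the B-1 gate (0.71, 0.35 to 1.09). None of 4 receptors for immunoglobulin and of 14 class switching genes was past 2-fold, the IgM receptor Fcmr being at -0.96 (-1.28 to -0.61). Of the 4 surrogate light-chain genes, Vpreb3 alone reached 5 CPM and was past 2-fold lower in the B-1 gate. Vpreb3 (4.35 CPM in the B-1 gate and 115 in the B-2 gate) and Cr2 (2.46 and 18.7 CPM) reached 5 CPM through the B-2 gate alone. Fkbp11 (14.1 and 2.67 CPM) did so through the B-1 gate alone. Their places in these counts support nothing further. The 3 lambda V segments were not past 2-fold, with Iglv1 at -0.46 (-0.72 to -0.19).

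The V segments of phosphatidylcholine-binding B-1 cells, a specificity of natural IgM, gave a check of pairing between chains. Of the 4 listed, 3 were past 2-fold higher in the B-1 gate, against 6.61% of all features. However, Ighv11-2 had no UMI in the B-2 gate and so reached 5 CPM through the B-1 gate alone. Igkv14-126 and Igkv4-91 had their UMIs of the B-2 gate in 1 cell each. Igkv4-91 was at a log2 ratio of 1.21 (-0.03 to 2.84) and Igkv14-126 at a log2 ratio of 1.93 (1.05 to 2.995), and Ighv12-3 was not (0.11, -1.49 to 2.41). Of 78 B cells with at least 2 UMIs of Ighv11-2, 73 (93.6%, 85.7% to 97.9%) also had at least 2 of Igkv14-126, and 0 had Igkv4-91. Of 30 cells with Ighv12-3, 21 (70.0%, 50.6% to 85.3%) had Igkv4-91 and 0 had Igkv14-126. In B cells without Ighv11-2, 0.931% (0.614% to 1.35%) had Igkv14-126. The 94 cells with either known pair came from 5 of 6 libraries, with none in library 6. Of them 49 were in the B-1 gate (3.66%, 2.72% to 4.81%), 44 had neither gate's genes (2.97%, 2.17% to 3.97%) and 0 of 88 were in the B-2 gate (upper limit 4.11%), intervals that overlapped. Because these cells were chosen for UMIs of V segments, which lie on the same transcripts as Ighm and Igkc, cells rich in immunoglobulin RNA were favoured, and their levels are a description. They had 2490 CPM of Ighm (2376 to 2609), against 1781 CPM (1761 to 1800) in the other B cells, and Ighd was at 70.2 CPM (52.1 to 92.5) and 114 CPM (110 to 119). Although their receptor uses kappa, Iglc2 was at 1373 CPM (1288 to 1462) in them and 892 CPM (879 to 906) in the others, with a UMI in 98.9% (94.2% to 100%) of the 94 cells.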

How the data were processed

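Single cells were captured with a 10x Genomics 5′ kit, and the authors aligned reads to hg38 and mm10 with STAR in Cell Ranger and counted the mouse genes. Cell Ranger is given as 2.2 in the submitters' processing notes (with Seurat 3.0), and the version in the study's methods differs. The deposited values are raw UMI counts per gene and barcode, joined over 6 libraries with the library number in the barcode. The counts were not normalized and include barcodes that the filter on cells removes. The annotation is not given in the sources used here. GENCODE vM21 (GRCm38) held 55341 of the 55538 feature names and gave positions and sequences.

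The filter followed the study's (at least 500 genes, at most 10% mitochondrial counts), leaving out 95 barcodes. Its ratio of UMIs per gene, with a limit of 0.8, was read here as log genes over log UMIs, which is an assumption. CPM were UMIs summed over the cells of a class per 1000000 of all their UMIs. Totals were 4234786 to 10287079 UMIs per library, and medians per cell 2783 to 5794. Cells of a library are not replicates, so no test was run. Instead, 95% exact Poisson, conditional and binomial intervals were given, with 3 counts as the floor where a count was 0. They were checked on simulated counts drawn from the same models, a check that could not reveal UMIs lying together in single cells. Features at 5 CPM or more on average over both classes were counted past 2-fold after adding 1 CPM. Scrublet (scanpy 1.11.5) marked 47 barcodes (0.606%) as doublets, 7 of them B cells. They were kept in the main values and left out as an alternative. Analyses used Python 3.11.15, numpy 2.4.6, scipy 1.17.1 and pandas 2.3.3.

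The 9 members, the gates, the gene lists and the V segments were chosen with earlier results of these data known. Named genes were the 9 members, the 5 other constant genes, up to 4 genes per list with the largest ratio, and the 3 genes most like each of 5 members. The 98-base window follows a second-read length given in the methods, which also name a longer one. The libraries were not assigned to genotype or time, so conditions were not compared here. Values of a few listed genes are not reported here.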

Additional observations from a re-analysis of the deposited data

How the results depend on the processing

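Of 277 recomputed values, 234 stayed within the counting interval of the value reported (counts within 1.5 times) and 43 moved beyond it. None changed the direction of a ratio whose interval had excluded 0. For B-1 over B-2, Iglc3 was at -0.94 (log2) and Ighg3 at -0.15 with cells thinned to 1500 UMIs, and Ighg3 was at 0.48 with at least 8 Cd79 UMIs. Leaving out each library in turn gave -2.77 to -2.34 for Ighd (-2.34 without library 4) and 0.34 to 1.03 for Ighg3 (0.34 without library 4 and 0.51 without library 1).

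Against B cells, macrophages with no Cd79 UMI gave -7.94 for Ighm, -8.60 for Ighd, -8.68 for Igkc, -9.22 for Iglc2 and -9.36 for Iglc3. T cells in place of macrophages gave -4.42 for Ighm, -5.83 for Igkc and -6.18 for Iglc2. With T cells at 0 UMIs and set at the floor of 3 counts, the values were -6.28 for Iglc1, -7.01 for Iglc3, -1.61 for Igha, -3.07 for Ighg3 and -0.90 for Jchain. Ighm was at -6.85 without called doublets. Leaving out each library in turn gave -7.06 to -6.42 for Ighm (-7.06 without library 6), -7.81 to -7.19 for Igkc, -8.11 to -7.01 for Iglc2 (-8.11 without library 1), -8.98 to -7.42 for Iglc3 (-8.98 without library 1) and -4.92 to -4.44 for Igha.

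Cells with more lambda than kappa UMIs in the B-1 gate were 68.6% at 20 or more light-chain UMIs, and 58.8% to 70.3% with each library left out. Switched B cells numbered 9 at 10 or more switched UMIs and 19 to 29 with each library left out (19 without library 2). With no filter on low values, 2295 features were past 2-fold higher and 1551 lower in the B-1 gate, against 610 and 624.

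For kappa over lambda V cells, Iglc2 was at 0.0495 with at least 5 V UMIs. Without each library in turn, Igkc ran from 2.98 to 3.25, Iglc1 from -1.05 to -0.71, Iglc2 from 0.0244 to 0.29 and Iglc3 from 0.46 to 0.77. These alternatives were chosen after seeing the data. The causes of these moves were not tested. Conditions could not be tested because each group had 1 library. Gates were set side by side within each library, and no result came from a test. The 88 cells of the B-2 gate, and the few UMIs of Igha, Ighg3 and Jchain, limit what these ratios can show.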
